A study of Mus musculus with 24 samples.

Results

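The core genes of the circadian clock were followed through the series: Per1, Per2, Per3, Cry1, Cry2, Arntl, Clock, Nr1d1, Nr1d2 and Dbp, chosen by symbol as 10 of the 55177 annotated genes with transcripts in the tables. RNA was sequenced from primary neurons of mouse cortex taken at embryonic day 16.5 and cultured for 7 or 18 days in vitro (DIV7 and DIV18), in 24 libraries. All cultures, resting ones included, had been silenced overnight with tetrodotoxin at 1 µM, a sodium channel blocker, and D-AP5 at 100 µM, an NMDA receptor antagonist. For depolarization, KCl was then added at 50 mM and left for 30 min. The DIV7 cultures, 2 at rest and 2 after KCl, were wild type and treated with 0.1% DMSO. At DIV18 the control carried a non-targeting guide RNA (NT, 2 at rest and 2 after KCl). The other DIV18 cultures were a CRISPR knockout of Smarcc2, a subunit of the BAF chromatin remodelling complex, and carried an empty vector (3 and 3), wild-type Smarcc2 added back (WT, 2 and 3), the S586E form of Smarcc2 (3 at rest) or its S586A form (2 after KCl). DIV7 RNA was poly(A)-selected and DIV18 RNA was depleted of ribosomal RNA, so culture age and library type cannot be told apart. The DMSO, named for DIV7 only, and the guide RNA of the NT cultures go with age as well. Each embryo's cortex counted as a biological replicate, and how the guide RNAs were delivered is not given in the sources used here. The time of day at harvest is not given in the sources used here.

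In the clock, the transcription factors CLOCK and BMAL1, the product of Arntl, bind E-box elements and switch on the Per, Cry, Nr1d and Dbp genes. PER and CRY proteins then repress CLOCK and BMAL1, and the nuclear receptors REV-ERBα and REV-ERBβ, the products of Nr1d1 and Nr1d2, repress Arntl through ROR elements. Dbp encodes an activator that binds D-box elements, present in Per genes among others. Per1 is also known as an immediate-early gene: depolarization and light can induce it through cAMP response elements (CREs) bound by CREB, in the brain's pacemaker and in other neurons.

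Promoter sequence is shown for Per1, which changed after KCl at DIV7, and for Per1, Nr1d2 and Dbp, which differed between knockout and control at rest. RefSeq windows (GRCm38.p6) from 250 bases before to 50 after a start site were available for 9 of the 10 genes, with Per2 unmatched, and stretches inside annotated exons were left out of the print. Capitals mark the E-box CACGTG and the CRE half-site TGACG. Per1 (ENSMUSG00000020893.17) lies at chr11:69095217-69109960 on the plus strand, Nr1d2 (ENSMUSG00000021775.11) at chr14:18204054-18239127 on the minus strand and Dbp (ENSMUSG00000059824.12) at chr7:45705088-45710203 on the plus strand. The stretch before the first RefSeq start site of Per1 is chr11:69098699-69098947, and that before its second is chr11:69099902-69100151. Neither Per1 window covers the start of the annotated Per1 form that begins at chr11:69095217, described below. The Nr1d2 stretch is chr14:18239128-18239356, read on the minus strand, and the Dbp stretch is chr7:45704997-45705087, on the plus strand.
Per1, first start site: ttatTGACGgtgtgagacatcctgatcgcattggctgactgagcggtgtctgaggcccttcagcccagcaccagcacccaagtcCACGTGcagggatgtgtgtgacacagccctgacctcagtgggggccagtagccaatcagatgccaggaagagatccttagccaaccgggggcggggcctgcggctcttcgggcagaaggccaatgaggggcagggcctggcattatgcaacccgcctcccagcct
Per1, second start site: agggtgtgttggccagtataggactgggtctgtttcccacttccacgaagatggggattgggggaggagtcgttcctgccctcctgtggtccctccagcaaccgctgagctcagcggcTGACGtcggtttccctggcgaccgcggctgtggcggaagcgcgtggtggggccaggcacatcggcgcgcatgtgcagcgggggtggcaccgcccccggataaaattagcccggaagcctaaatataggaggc
Nr1d2: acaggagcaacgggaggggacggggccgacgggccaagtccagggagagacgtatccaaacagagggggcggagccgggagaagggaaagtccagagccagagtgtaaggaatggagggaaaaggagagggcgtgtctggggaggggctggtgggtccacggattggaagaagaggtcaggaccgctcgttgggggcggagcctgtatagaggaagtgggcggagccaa
Dbp: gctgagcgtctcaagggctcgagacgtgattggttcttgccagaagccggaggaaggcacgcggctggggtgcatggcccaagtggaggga
In the first Per1 window the E-box lies 166 bases and the half-site 246 bases before the start site. In the second the half-site lies 132 bases before it and is part of the longer match TGACGTC. Nr1d2 and Dbp have none of the motifs searched in their windows. The search covered both strands for the E-box CACGTG, the CRE TGACGTCA, its part TGACGTC, the half-site TGACG, which overlaps both, the D-box TTATGTAA and the ROR element core TAGGTCA. Of 32851 RefSeq windows, 7.15% hold the E-box, 1.79% the full CRE, 3.205% TGACGTC, 20.812% the half-site, 0.938% the D-box and 2.606% the ROR core. Among the other clock genes, Per3 holds 2 D-boxes, 205 and 158 bases before its start site, Cry1 an E-box 60 bases and a CRE half-site 8 bases before, Cry2 a half-site 209 bases before, and one Arntl window a ROR core 30 bases after. The Clock and Nr1d1 windows hold none of these letters.

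The labels were checked first, in values that concern the whole series. The 4 DIV7 libraries held 24536056 to 30135576 estimated counts each, and the 20 DIV18 libraries 14510199 to 24024959. The summed level of 8 neuronal markers was 3916 to 6094 CPM (counts scaled to library size after TMM normalisation, done separately for each age). Astrocyte markers summed to 79.5 to 534 CPM, oligodendrocyte lineage markers to 66.9 to 213 CPM, microglial markers to 1.73 to 8.92 CPM, and fibroblast or vessel markers to 5.40 to 14.4 CPM. Smarcc2 was lower in resting knockout cultures with vector than in NT (47.1 to 64.1 CPM against 237 and 265 CPM, log2 fold change -2.23, adjusted p 7.34e-08, edgeR). With the gene added back Smarcc2 was above NT. At rest it was at 756 and 816 CPM with WT and 1164 to 1276 CPM with S586E. After KCl it was at 737 to 1089 CPM with WT and at 1303 and 1340 CPM with S586A. Fos, the standard activity marker, was at 3.65 and 4.47 CPM at rest and at 598 and 618 CPM after KCl at DIV7. At DIV18 Fos was at 2.75 to 8.34 CPM at rest and at 32.7 to 197 CPM after KCl, so the stimulus was seen in every depolarized library but varied widely there.

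All 10 clock genes passed the low-count filter at both ages. Compared per length, as deposited TPM (a transcript share corrected for length), Dbp was the most abundant of them at DIV18, with a median of 54.8 TPM over 20 libraries (39.5 to 70.9). Nr1d1 followed at 36.6 TPM (29.2 to 45.5), then Cry2 at 31.4 (22.1 to 42.1), Per1 at 26.1 (14.6 to 34.0), Clock at 17.8 (11.4 to 21.1) and Nr1d2 at 16.8 (12 to 22.3). Arntl was at 5.41 TPM (4.07 to 7.03), Per3 at 3.77 (2.69 to 4.45), Cry1 at 2.63 (2.04 to 4.05) and Per2 at 1.63 (0.718 to 3.21). Each gene's range overlapped that of its neighbour in this order, apart from a gap between Nr1d2 and Arntl. The overlap of Dbp with Nr1d1 came from the first resting WT library alone. That library also held the lowest TPM of Cry2, Per1, Clock, Nr1d2, Per3 and Cry1. The next lowest Dbp value was 45.6 TPM, above the highest of Nr1d1, and Dbp was above Nr1d1 within each DIV18 library. The highest Per2 value, in the second depolarized WT library, includes 2.04 TPM assigned to a short Per2 form of 231 bases that was at 0 in most libraries.

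The order was different in the DIV7 libraries. There Cry2 led at a median of 34.4 TPM over 4 libraries, followed by Per1 at 26.7, Nr1d1 at 24.5, Arntl at 19.8, Clock at 11 and Cry1 at 10.4 TPM. In the resting libraries alone the mean was 21.7 TPM for Per1 and 23.2 TPM for Nr1d1. Nr1d2 and Dbp were both at 6.68 TPM, Per2 was at 6.22 and Per3 at 1.24 TPM. The medians of Dbp, Nr1d1, Nr1d2, Per3 and Clock were thus higher at DIV18, and those of Arntl, Cry1 and Per2 higher at DIV7. Nr1d1 shares 263 exon bases with Thra on the opposite strand, and Thra was at 1061 to 1098 TPM at DIV7 and 106 to 190 TPM at DIV18; the part of those reads in the Nr1d1 value was not tested. These levels come from poly(A) and from ribosomal-RNA-depleted libraries and were not tested against each other. The medians pool resting and depolarized libraries at both ages and, at DIV18, the control and all knockout cultures.

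**Figure D1:**
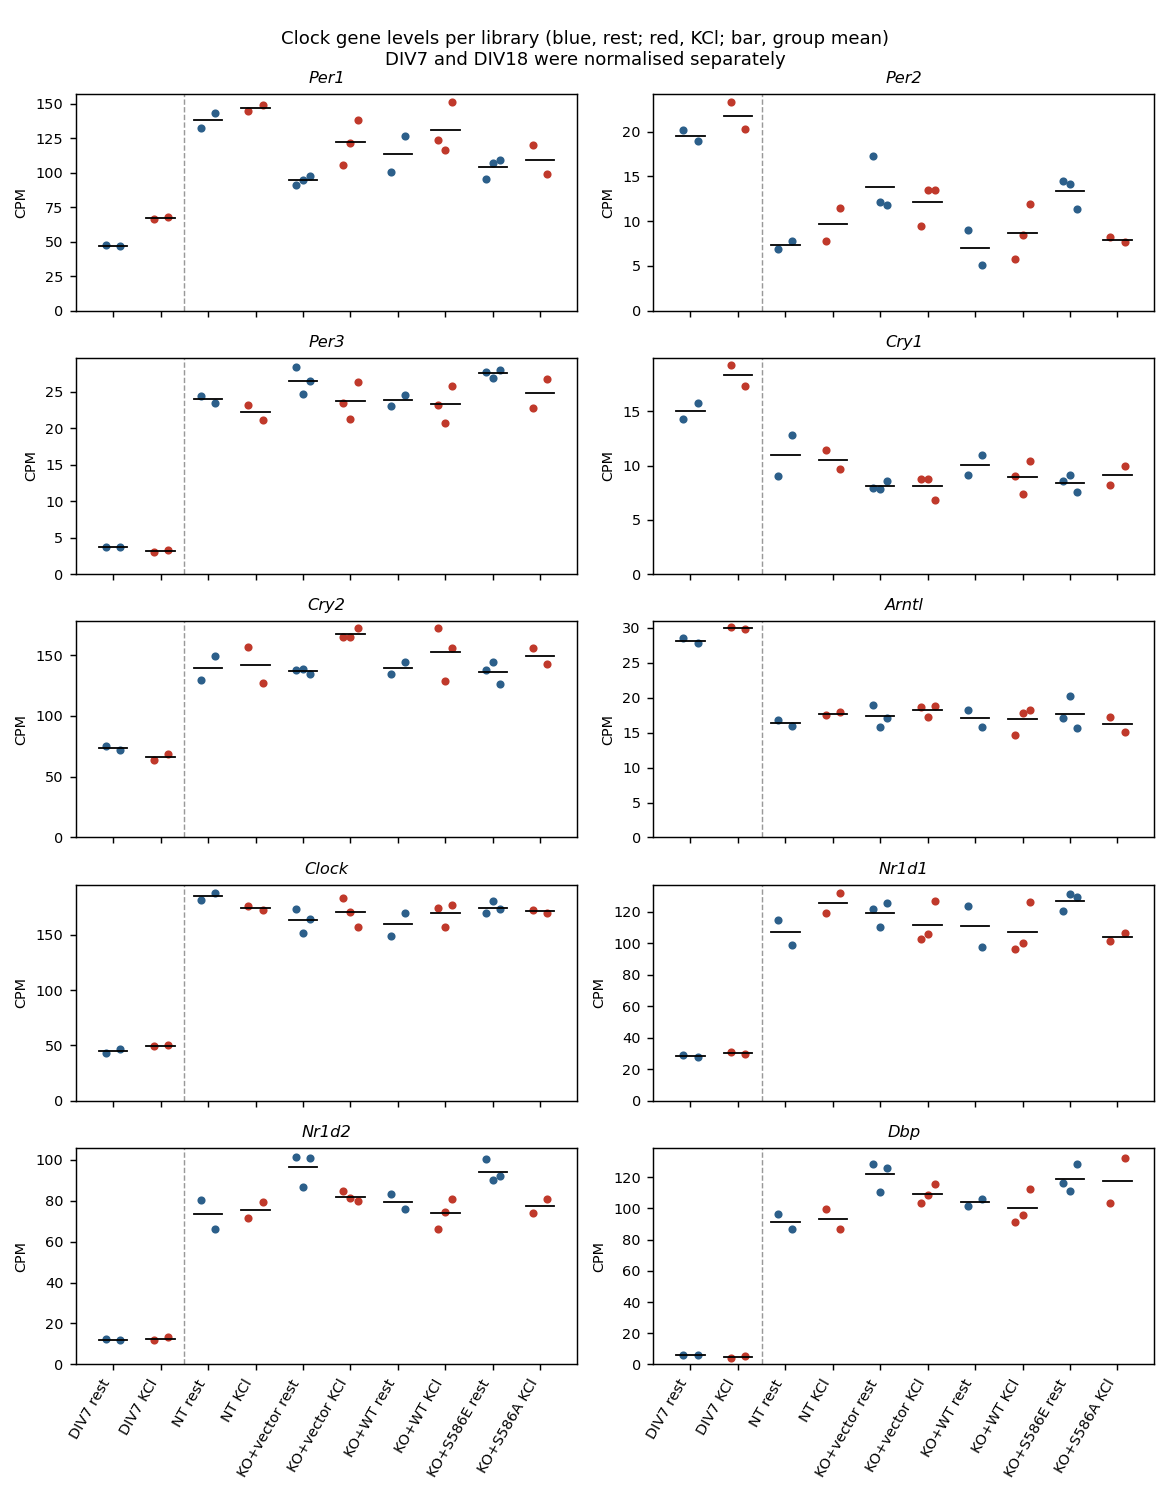
TMM-normalised level (CPM, linear axis from 0) of the 10 clock genes in each of the 24 libraries, with resting libraries in blue, depolarized ones in red and a bar at each group mean; the dashed line separates DIV7 from DIV18, which were normalised separately. Per1 rises from 46.5 and 47.3 CPM to 66.3 and 67.8 CPM after KCl at DIV7, and all resting knockout libraries with vector lie below both resting NT libraries for Per1 and above them for Nr1d2, Dbp and Per2.

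Depolarization at DIV7 raised Per1, and of the 10 clock genes only Per1 passed the test, 1 higher and 0 lower. Of all 19822 genes tested there 17.0% were called (3371), 7.34% higher and 9.67% lower. Per1, one of the clock's PER repressors, was at 47.3 and 46.5 CPM in the resting libraries and at 66.3 and 67.8 CPM after KCl. Both depolarized libraries were above both resting ones, and the replicates of each state lay close together. The log2 fold change was 0.52 (SE 0.0544, adjusted p 0.00175, edgeR quasi-likelihood test), a rise of 1.43-fold, at rank 327 by p-value among the genes tested. It was called in all 10 alternative analyses, at 0.50 to 0.57.

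Its paralogues did not pass the test. Per2 was at 20.2 and 18.9 CPM at rest and 23.3 and 20.3 CPM after KCl (log2 fold change 0.15, SE 0.0956, adjusted p 0.322, edgeR). Per3, the most weakly expressed of the family at this age, was at 3.72 and 3.71 CPM at rest and 3.01 and 3.28 CPM after KCl (-0.24, SE 0.165, adjusted p 0.373). Neither gene's groups overlapped, but the gaps were small against the fitted error.

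The cryptochromes, which repress together with the PER proteins, leaned in opposite directions. Cry1 was at 14.3 and 15.7 CPM at rest and 19.3 and 17.3 CPM after KCl (log2 fold change 0.29, SE 0.0988, adjusted p 0.0912, edgeR). Cry2 was at 75.1 and 71.9 CPM at rest and 63.3 and 68.3 CPM after KCl (-0.16, SE 0.0601, adjusted p 0.117). Neither was called. Both passed only when the replicate number was added as a block (adjusted p 0.0255 for Cry1 and 0.0271 for Cry2, edgeR). The numbers do not pair these libraries by the check made, and the block raised the genes called from 3371 to 5854 of 19822. Cry2 shares 295 exon bases with D930015M05Rik on the opposite strand, which was called lower in the same comparison (-2.35, adjusted p 0.0300).

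The activators and the nuclear receptors did not pass the test. Arntl was at 28.5 and 27.8 CPM at rest and 30.2 and 29.9 CPM after KCl (log2 fold change 0.09), and its partner Clock at 42.8 and 47.2 CPM and 49.2 and 50.0 CPM (0.14). The values were 0.11 for Nr1d1 and 0.05 for Nr1d2. The output activator Dbp was at 6.35 and 5.84 CPM at rest and 4.26 and 5.14 CPM after KCl, a lower level in both libraries that did not pass (-0.38, SE 0.153, adjusted p 0.141, edgeR). Dbp shares 539 exon bases with Sphk2 on the opposite strand, and Sphk2 was called lower in the same comparison (-0.50, adjusted p 0.00515); the part of those reads in the Dbp value was not tested, and the strand setting of the counting is not given in the sources used here. Over the 10 genes the median log2 fold change was 0.0997, beside -0.00141 over all genes tested. Of the marker lists, 2 of 6 astrocyte markers were called lower after KCl (Gfap -0.49, Slc1a3 -0.22), and of 8 neuronal markers Map2 was called higher (0.20) and Tubb3 lower (-0.53); their part in the Per1 value was not tested.

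**Figure D2:**
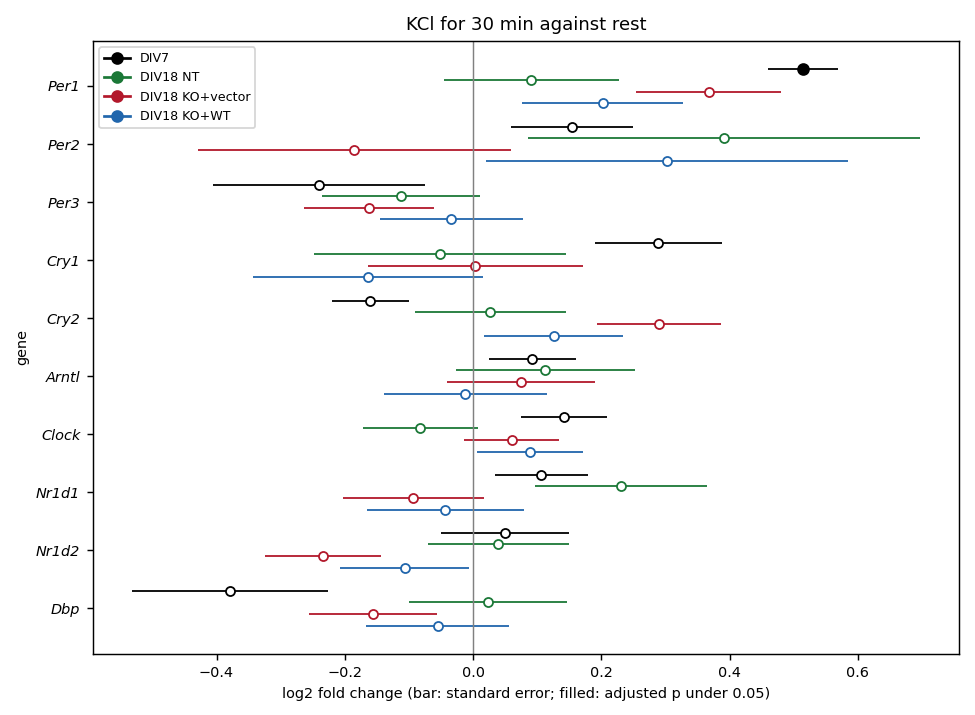
Log2 fold change of each clock gene after 30 min of KCl against rest (x axis; bars are standard errors, filled points have an adjusted p under 0.05) at DIV7 and in 3 kinds of DIV18 culture. Per1 at DIV7 (0.52) is the single filled point, and the DIV18 values of Per1 run from 0.09 in NT to 0.37 with vector.

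At DIV18 no clock gene passed the test for KCl against rest. In NT cultures 0 of the 10 were called, against 0.00955% of 20940 genes tested (2 called), and 0 had an unadjusted p under 0.05. With vector 0 of 10 were called, against 0.0716% (15 genes), and 3 had an unadjusted p under 0.05. With WT 0 of 10 were called, against 0.0430% (9 genes), and 0 had an unadjusted p under 0.05. Over all 20940 genes, 906 had an unadjusted p under 0.05 in NT, 2167 with vector and 1040 with WT. DESeq2 also called 0 of the 10 in each of the 3, and 15, 51 and 32 of all genes. With so few genes of any kind called, these counts say little about the clock genes.

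Per1 was higher after KCl on average at DIV18, by amounts that did not pass. In NT it was at 132 and 143 CPM at rest and 145 and 149 CPM after KCl (log2 fold change 0.09, SE 0.136). With vector it was at 91.1, 94.5 and 97.9 CPM at rest and 106, 122 and 138 CPM after KCl (0.37, SE 0.113, unadjusted p 0.00427, adjusted p 0.294, edgeR). With WT it was at 101 and 126 CPM at rest and 124, 116 and 152 CPM after KCl (0.20, SE 0.126), where the groups overlapped. The mean of the 3 responses was 0.22 (SE 0.0724, unadjusted p 0.00686, adjusted p 0.340), in a comparison that called 0 of the 10 clock genes and 0.449% of all genes. Without the low-count filter Per1 passed in the vector response and in the mean of the 3 (adjusted p 0.0327 for the mean, edgeR). That setting called 515 and 442 of 41147 genes, where the main fit called 15 and 94 of 20940. No other alternative called Per1 there.

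With vector, Cry2 and Nr1d2 had an unadjusted p under 0.05 for KCl against rest but were not called. Cry2 was at 138, 139 and 134 CPM at rest and 165, 165 and 172 CPM after KCl, without overlap (log2 fold change 0.29, SE 0.0966, adjusted p 0.326, edgeR). Nr1d2, a repressor of Arntl, was at 101, 86.7 and 101 CPM at rest and 84.8, 81.2 and 79.6 CPM after KCl, also without overlap (-0.23, SE 0.0904, adjusted p 0.384). In NT the same values were 0.03 for Cry2 and 0.04 for Nr1d2, with overlapping libraries. In WT cultures they had the signs seen with vector, at 0.13 for Cry2 and -0.11 for Nr1d2, also with overlapping libraries. The difference between the vector and NT responses was called for 0 of the 10 genes, as for 0% of all genes, with 0 of the 10 at an unadjusted p under 0.05. The same holds for the WT against the vector response. Over all genes, 1845 and 768 of 20940 had an unadjusted p under 0.05 in these comparisons.

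The Per1 response at DIV7 was not shown to differ from that at DIV18. Library type, DMSO and the guide RNA of NT go with age in this comparison too. In a joint fit of all 24 libraries the DIV7 response exceeded the NT response by 0.44 on the log2 scale (SE 0.184, unadjusted p 0.0258, adjusted p 0.328, edgeR), and 0 of the 10 clock genes were called, against 1.82% of 22459 genes.

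The clearest change in the clock genes at DIV18 was between the Smarcc2 knockout with vector and NT at rest. There 3 of the 10 passed, 1 lower and 2 higher, against 5.90% of all genes tested (1236 of 20940), of which 2.13% were higher and 3.77% lower. Per1 was lower in the knockout, while Nr1d2 and Dbp, a target and an output of the loop, were higher. Another 3 had an unadjusted p under 0.05 without being called, Per2, Cry1 and Clock. Over all genes, called ones included, 4262 of 20940 had such a p.

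Per1 was at 132 and 143 CPM in resting NT and at 91.1, 94.5 and 97.9 CPM in the resting knockout with vector. The groups were well apart, and the log2 fold change was -0.55 (SE 0.124, adjusted p 0.0148, edgeR). Nr1d2 was at 80.3 and 66.4 CPM in NT and 101, 86.7 and 101 CPM in the knockout (0.39, SE 0.102, adjusted p 0.0288). Dbp was at 96.2 and 86.9 CPM in NT and 129, 110 and 126 CPM in the knockout (0.41, SE 0.113, adjusted p 0.0375). For Nr1d2 and Dbp the lowest knockout library stood closer to the highest NT library than for Per1. Sphk2, which overlaps Dbp on the other strand, was not called here and leaned the other way (-0.36, adjusted p 0.131).

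These calls rest on 2 NT libraries. Without NT resting replicate 2 none of the 3 was called (adjusted p 0.229 for Per1, 0.468 for Nr1d2 and 0.419 for Dbp, edgeR), and without NT resting replicate 1 Dbp was not (0.0788). Leaving out vector resting replicate 1 left Per1 as the 1 gene called (adjusted p 0.0827 for Nr1d2, 0.105 for Dbp, edgeR). Leaving out replicate 3 did the same (0.0726 and 0.0834), as did a fit of only the groups compared. Over all genes these fits called 724 of 20892, 1031 of 20753 and 225 of 18460, where the main fit called 1236 of 20940. Leaving out an NT resting library also lowered the calls over all genes. With length offsets, which called 681 of 20940 genes, Per1 did not pass (0.0812, edgeR). The directions of Per1, Nr1d2 and Dbp were the same in all 12 alternatives.

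Per2 leaned upward in the knockout. It was at 6.88 and 7.80 CPM in resting NT and at 17.3, 12.1 and 11.8 CPM with vector, on 162 to 321 estimated counts per library (log2 fold change 0.91, SE 0.282, adjusted p 0.0658, edgeR). It passed with DESeq2 (adjusted p 0.0172) and without the low-count filter (1.68e-04, edgeR), each of which called 4 of the 10. Over all genes those settings called 1639 of 20940 and 2016 of 41147, where the main fit called 1236 of 20940. Cry1 was at 9.09 and 12.8 CPM in NT and at 7.92, 7.86 and 8.60 CPM in the knockout (-0.43, SE 0.181, adjusted p 0.176), and Clock at 181 and 188 CPM against 173, 152 and 164 CPM (-0.18, adjusted p 0.228). Per3 (0.15), Cry2 (-0.02), Arntl (0.08) and Nr1d1 (0.16) did not pass. Over the 10 genes the median was 0.113, beside 0.0186 over all genes tested.

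Markers of other cells moved with the same contrast. Of 8 oligodendrocyte lineage markers 4 were called lower in the resting knockout with vector (Pdgfra, Cspg4, Sox10 and Olig1), and their summed level was 197 to 207 CPM in NT and 134 to 152 CPM with vector. Sox10 was at 0 in all 3 vector libraries. Of 6 microglial markers 3 were tested and 1, Csf1r, was called lower (summed level 6.93 to 7.99 CPM against 3.80 to 3.82 CPM). Astrocyte markers summed to 295 to 360 CPM in NT and 79.5 to 320 CPM with vector, with 0 of 6 called, and of 8 neuronal markers 0 were called. The part of these cells in the clock gene values was not tested, and in such mixed cultures fewer cells of a type and less RNA per cell cannot be told apart.

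Under KCl no clock gene was called between the knockout and NT by edgeR or by DESeq2. Of the 10, 0 were called by edgeR, against 2.67% of all genes (560 called, 0.726% higher and 1.95% lower). An unadjusted p under 0.05 was found for 2 of the 10 and for 3466 of 20940 genes. DESeq2 called 943 of 20940 genes. Per1 was at 145 and 149 CPM in NT and at 106, 122 and 138 CPM with vector, still without overlap (log2 fold change -0.27, SE 0.124, adjusted p 0.286, edgeR). Nr1d2 was at 71.6 and 79.2 CPM against 84.8, 81.2 and 79.6 CPM (0.12, adjusted p 0.603), and Dbp at 99.4 and 86.6 CPM against 104, 109 and 116 CPM (0.23, adjusted p 0.311). Cry2 was at 156 and 127 CPM against 165, 165 and 172 CPM (0.24, adjusted p 0.271). Per1, Nr1d2 and Dbp thus kept the sign they had at rest, at smaller values, and no difference between the states passed its own test. Of the marker lists, 2 of 6 astrocyte markers (Aqp4 and S100b), 3 of 8 oligodendrocyte lineage markers (Pdgfra, Olig1 and Olig2) and 1 of 8 neuronal markers (Snap25) were called lower with vector under KCl. Astrocyte markers summed to 220 to 534 CPM in NT and 104 to 166 CPM with vector, oligodendrocyte lineage markers to 131 to 213 CPM and 114 to 133 CPM, and neuronal markers to 4977 to 5379 CPM and 4368 to 4603 CPM. Their part in the clock gene values under KCl was not tested.

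**Figure D3:**
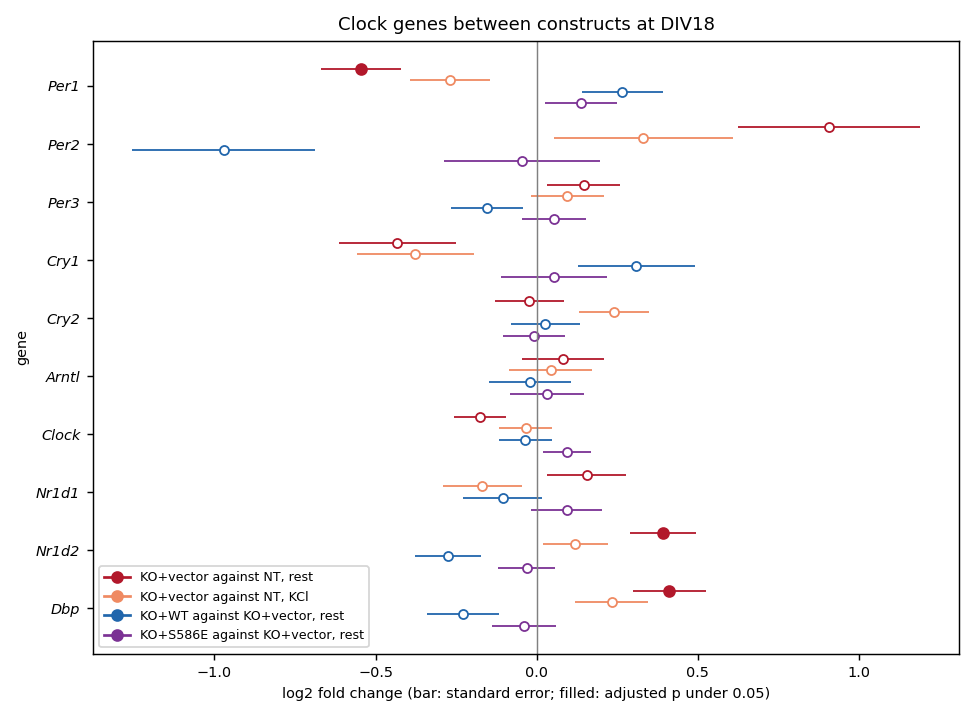
Log2 fold change of each clock gene between DIV18 constructs (x axis; bars are standard errors, filled points have an adjusted p under 0.05): vector against NT at rest and under KCl, and WT and S586E against vector at rest. Per1 (-0.55), Nr1d2 (0.39) and Dbp (0.41) are the filled points, all in vector against NT at rest, and the comparisons at rest share the vector libraries.

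Putting wild-type Smarcc2 back did not change any clock gene past the threshold. At rest 0 of 10 were called against vector, as against 0.0143% of all genes (3 called). An unadjusted p under 0.05 was found for 3 of the 10 and for 2316 of 20940 genes. With WT, Per1 was at 101 and 126 CPM, above the 3 vector libraries and below the 2 NT libraries (log2 fold change against vector 0.27, SE 0.125, adjusted p 0.444, edgeR). Nr1d2 was at 83.2 and 75.9 CPM with WT (-0.28, adjusted p 0.318) and Dbp at 102 and 106 CPM (-0.23, adjusted p 0.469), both below all vector libraries. Under KCl 0 of 10 were called, against 0.00955% of all genes (2 called), and 0 had an unadjusted p under 0.05, against 835 of 20940 genes.

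Per2 showed the largest of these values. With WT at rest it was at 8.97 and 5.08 CPM, against 17.3, 12.1 and 11.8 CPM with vector, on 189 and 107 estimated counts (log2 fold change -0.97, SE 0.284, adjusted p 0.211, edgeR). It passed with DESeq2 (0.0416) and without the low-count filter (2.07e-04, edgeR). Those settings called 178 of 20940 and 604 of 41147 genes, where the main fit called 3 of 20940. The 2 WT libraries differed from each other: without WT resting replicate 1 the value was -1.43, and without replicate 2 it was -0.61. The vector against NT and the WT against vector comparisons share the vector libraries, so their opposite signs for Per1, Per2, Nr1d2 and Dbp are not independent of each other. Against NT directly, WT gave 0 of 10 called at rest (0.105% of all genes) and 0 of 10 under KCl (0.201%). At rest 1 of the 10, Clock, had an unadjusted p under 0.05 (-0.21), and under KCl 0 had. Over all 20940 genes, 1650 had one at rest and 2300 under KCl.

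In the S586E and S586A forms a serine of the Smarcc2 protein is replaced by glutamate or alanine. Each was compared with WT in the only state in which it was sequenced. Smarcc2 RNA was higher in each form's libraries than in all WT libraries of the same state, so form and level cannot be told apart. S586E against WT at rest called 0 of the 10 clock genes, as it called 0% of all genes. An unadjusted p under 0.05 was found for 2 of the 10 (Per2 and Nr1d2) and for 2696 of 20940 genes. Per2 was at 14.5, 14.1 and 11.4 CPM with S586E and at 8.97 and 5.08 CPM with WT, without overlap (log2 fold change 0.93, SE 0.283, adjusted p 0.190, edgeR). It passed with DESeq2 (0.0385) and without the low-count filter (3.56e-04, edgeR). Those settings called 316 of 20940 and 782 of 41147 genes, where the main fit called 0 of 20940. Without WT resting replicate 2 the Per2 value was lower than in any other alternative (0.57). Nr1d2 was at 100, 90.2 and 92.2 CPM with S586E and at 83.2 and 75.9 CPM with WT (0.24, SE 0.101, adjusted p 0.317).

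Against vector, no clock gene was called with S586E. Of the 10, 0 were called (0.0191% of all genes, 4 called) and 0 had an unadjusted p under 0.05, against 1560 of 20940 genes. Per2 differed by -0.05 (SE 0.242), Nr1d2 by -0.03, Dbp by -0.04 and Per1 by 0.14 (SE 0.113), where Per1 was at 95.5, 107 and 109 CPM with S586E. A p above the threshold does not show that the cultures were alike.

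S586A against WT under KCl called 0 of the 10 clock genes, as it called 0% of all genes. An unadjusted p under 0.05 was found for 1824 of 20940 genes and for 1 of the 10. That was Dbp, at 104 and 132 CPM with S586A and 91.4, 96.0 and 113 CPM with WT (log2 fold change 0.24, SE 0.111, adjusted p 0.571, edgeR), with overlap. Per1 was at 120 and 98.7 CPM with S586A and 124, 116 and 152 CPM with WT (-0.26, SE 0.126, adjusted p 0.578). Per2 was at 8.18 and 7.64 CPM with S586A, below all 3 depolarized vector libraries (9.47, 13.5 and 13.5 CPM; -0.61 against vector, SE 0.284, adjusted p 0.367). S586A against vector called 0 of 10, with 0.00955% of all genes called and 1 of the 10, Per2, at an unadjusted p under 0.05. Over all genes 2730 of 20940 had such a p.

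Within DIV18 the clock genes differed in their spread over all libraries. This spread pools the 8 groups, so it includes differences between constructs and states as well as between replicates. Per2 varied most over the 20 libraries, with an SD of 0.469 on the log2 CPM scale, followed by Per1 (0.239) and Cry1 (0.222). Dbp (0.183), Nr1d2 (0.179) and Nr1d1 (0.158) were intermediate. Cry2 (0.145), Per3 (0.136) and Arntl (0.118) varied less, and Clock least (0.0886).

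The annotated transcript forms of Per1 were examined as a description. The division of reads between forms is an estimate by the authors' program and varied between libraries for Per1 and for other clock genes. A short Per1 form of 496 bases held 6.39 to 18.5% of Per1 TPM at DIV7 and 0 to 27.8% at DIV18. The full-length form (ENSMUST00000021271.13), of 23 exons and 4671 bases, was at DIV7 at 16.7 and 15.3 TPM at rest and 19.4 and 19.2 TPM after KCl. A form that starts upstream of it (ENSMUST00000101004.8), of 18 exons and 3507 bases, was at 2.05 and 2.79 TPM at rest and 7.74 and 8.29 TPM after KCl. The ratio of the means was 1.20 for the full-length form and 3.31 for the upstream-start form. The last exon of the latter (chr11:69105390-69106458) takes in 829 bases of the intron between exons 18 and 19 of the full-length form, and its first exon (chr11:69095217-69095303) has 87 bases. Neither Per1 promoter window printed above covers the start of the upstream-start form. Only 243 bases of the upstream-start form belong to no other Per1 form. Reads from unspliced Per1 RNA could also be assigned to the intronic stretch, and their part was not tested.

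At DIV18 no such step was seen. The upstream-start form of Per1 was at 3.62 and 4.85 TPM in resting NT and 4.43 and 2.75 TPM after KCl. With vector it was at 2.74, 3.38 and 2.66 TPM at rest and 2.65, 2.96 and 4.98 TPM after KCl. The full-length form differed in the same direction as the gene between knockout and control, at 22.6 and 23.7 TPM in resting NT and 14.2, 14.3 and 15 TPM with vector.

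**Figure D4:**
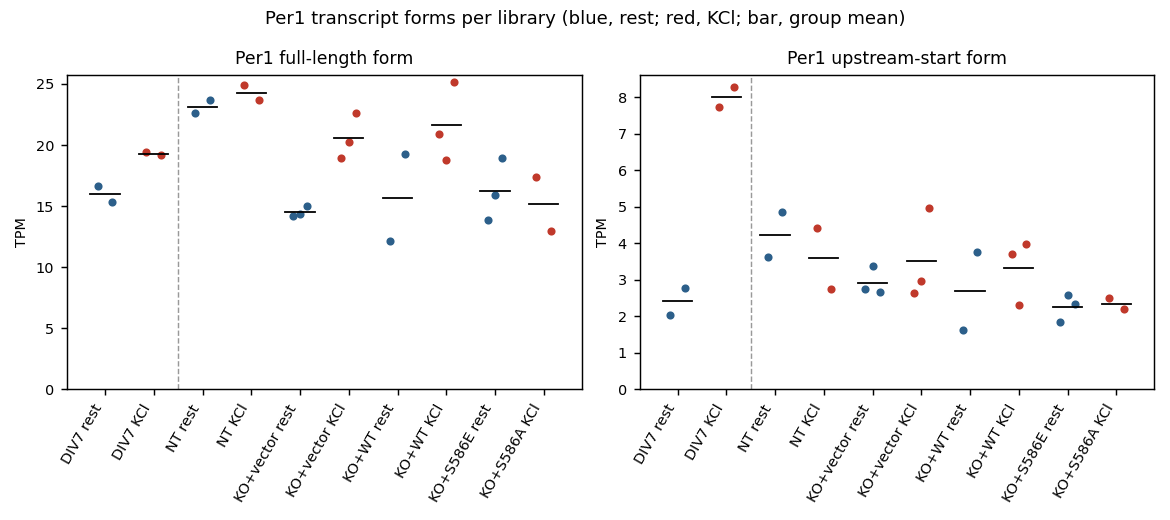
Deposited TPM (linear axes from 0) of the full-length and the upstream-start form of Per1 in each library, with resting libraries in blue, depolarized ones in red and a bar at each group mean. The upstream-start form goes from 2.05 and 2.79 TPM to 7.74 and 8.29 TPM after KCl at DIV7, while at DIV18 its resting and depolarized libraries overlap within NT and within the vector cultures.

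Beyond the core, 22 further genes tied to the clock (paralogues, ROR receptors, other repressors, and enzymes that modify or degrade PER and CRY) were counted. At DIV7 21 of them were tested, and 3 were called higher and 2 lower after KCl, where 7.34% of all genes tested were called higher and 9.67% lower. Nfil3, a repressor that competes with Dbp for D-box elements, was at 36.4 and 39.5 CPM at rest and at 110 and 107 CPM after KCl (log2 fold change 1.52, SE 0.0602, adjusted p 2.33e-05, edgeR), a far wider step than that of Per1. The kinase genes Gsk3b (0.27, adjusted p 0.00519) and Csnk1d (0.22, adjusted p 0.0164) were higher. Bhlhe40, an E-box repressor also called Dec1, was at 18.0 and 17.0 CPM at rest and 11.2 and 12.1 CPM after KCl (-0.59, SE 0.0937, adjusted p 0.00779). Ciart, a further repressor of CLOCK and BMAL1, was at 4.07 and 4.03 CPM at rest and 2.74 and 2.48 CPM after KCl (-0.63, adjusted p 0.0449). The median over the 21 genes was 0.0525, beside -0.00141 over all genes tested. Nfil3 and Gsk3b passed in all 10 alternatives. Ciart passed in 3 of 10 and failed whichever of the 4 libraries was left out, with adjusted p 0.0899 to 0.145. Csnk1d passed in 5 of 10 and also failed without any 1 library (0.0522 to 0.0919). Bhlhe40 passed in 8 of 10 and failed with length offsets (0.0978) and without resting replicate 1 (0.0534).

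At DIV18 none of the 22 was called for KCl against rest in NT, vector or WT cultures. The unadjusted p was under 0.05 for 2, 1 and 0 of them, and for 906, 2167 and 1040 of all 20940 genes. In the resting knockout with vector 2 were called higher and 3 lower against NT, where 2.13% of all genes tested were called higher and 3.77% lower. Ciart was at 12 and 13.6 CPM in NT and at 25.3, 21.9 and 22.2 CPM with vector (log2 fold change 0.86, SE 0.149, adjusted p 0.00291, edgeR). It passed in all 12 alternatives. Btrc, which encodes the F-box protein that marks PER proteins for degradation, was higher (0.37, adjusted p 0.0150). Bhlhe41, the paralogue of Bhlhe40, was at 47.1 and 49.6 CPM in NT and 37.1, 35.2 and 31.4 CPM with vector (-0.48, adjusted p 0.00711). Usp2, a deubiquitinase gene, was lower (-0.52, adjusted p 0.0358). Without NT resting replicate 2 Btrc (adjusted p 0.327), Bhlhe41 (0.141) and Usp2 (0.582) did not pass. Usp2 also failed without any 1 vector library (0.0673 to 0.0853).

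Under KCl Ciart was again higher in the knockout, at 21.7, 23.2 and 25.5 CPM against 14.2 and 13.3 CPM in NT (log2 fold change 0.77, SE 0.149, adjusted p 0.0115, edgeR). Of the 22 genes 1 was called higher and 1 lower, against 0.726% and 1.95% of all genes. Ciart did not pass without NT depolarized replicate 1 (0.0531) or replicate 2 (0.197). With WT at rest Ciart was at 18.9 and 18.8 CPM, between NT and vector, and S586E gave 20.1, 22.2 and 20.4 CPM. None of the 22 was called for WT against vector in either state or for S586E or S586A against WT. An unadjusted p under 0.05 was found for 4 of them in WT against vector at rest, 2 under KCl, 2 in S586E and 0 in S586A against WT. Over all 20940 genes the same counts were 2316, 835, 2696 and 1824.

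**Figure D5:**
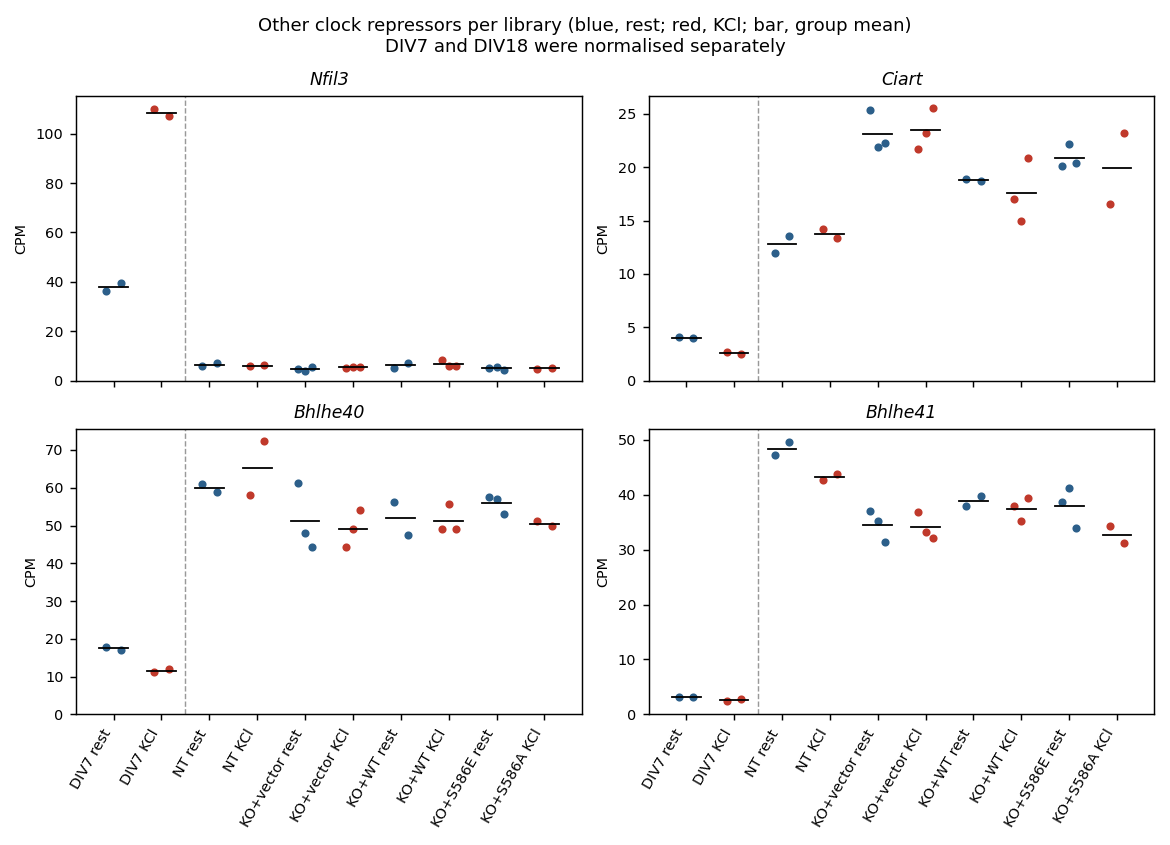
TMM-normalised level (CPM, linear axes from 0) of 4 further clock repressors in each library, with resting libraries in blue, depolarized ones in red and a bar at each group mean; DIV7 and DIV18 were normalised separately. Nfil3 goes from 36.4 and 39.5 to 110 and 107 CPM after KCl at DIV7 and stays below 10 CPM at DIV18, and Ciart is higher with vector than in NT in both states.

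The genes whose pattern over the 20 DIV18 libraries was most like that of 2 clock genes were listed by the root mean square difference of centred log2 CPM, among 13309 protein-coding genes. For Per1, whose own root mean square deviation from its mean was 0.233, these were Rimklb (0.118), Eea1 (0.126) and Sh3pxd2a (0.127). For Dbp, whose own deviation was 0.178, they were Asic1 (0.0927), Sybu (0.0928) and Kcnj3 (0.0975). All points share the same libraries and depths, and the list is a description without a test.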

How the data were processed

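RNA-seq of 24 cultures was analysed. The authors deposited 1 table per library with estimated counts, TPM and effective length per transcript, per the file headers; FastQC, cutadapt and kallisto are named in the submitters' processing notes, and the annotation and strand setting are not given in the sources used here. Of 142552 transcripts 141429 (99.2%) matched GENCODE M21 (GRCm38); the others held at most 0.467% of a library's counts. The deposited estimated counts were added up over the transcripts of a gene, then rounded, and deposited TPM was added up likewise for levels between genes. Effective length served only as an offset in an alternative.

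edgeR 4.0.16 (R 4.3.3; TMM, filterByExpr, quasi-likelihood F test, Benjamini-Hochberg over all genes tested, called under 0.05) was fitted to the 4 DIV7 libraries (19822 genes), the 20 DIV18 libraries in 8 groups (20940) and all 24 (22459, for the DIV7 against NT response only). DESeq2 1.42.0, no filter, other scalings and left-out replicates were alternatives. The scripts were tested on simulated data. Standard errors are the absolute log2 fold change over the square root of F.

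Members and gene lists were chosen with earlier results of these data known. The named genes were the 10 members, the called genes of the clock-related list (1 of which is counted but not reported here), and the 3 genes most like Per1 and Dbp. Among groups sharing 3 replicate numbers, same-numbered replicates deviated together (every correlation over 0.1) for vector with S586E at rest (0.103 to 0.293) and vector with WT under KCl (0.106 to 0.236). Among those sharing 2, which were not taken as paired, NT with WT was also over 0.1 (0.104 at rest, 0.111 to 0.12 under KCl).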

Additional observations from a re-analysis of the deposited data

Results flagged for a closer look

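Nfil3, which encodes a repressor at D-box elements, was the 1 clock-related gene whose KCl response differed between ages by a test of the difference itself. The DIV7 response exceeded the NT response at DIV18 by 1.61 on the log2 scale (SE 0.237, adjusted p 3.54e-04, edgeR, all 24 libraries). Nfil3 was at 36.4 and 39.5 CPM at rest and 110 and 107 CPM after KCl at DIV7, and at 5.78 and 7.25 CPM at rest and 5.92 and 6.40 CPM after KCl in NT. It was called in 13 of 13 alternatives, at 1.44 to 1.77. Library type, DMSO and the guide RNA of NT go with age in this comparison, so these cannot be told apart. Fos after KCl was at 598 and 618 CPM at DIV7 and at 113 and 38.5 CPM in NT, and its bearing on the Nfil3 difference was not tested.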

How the results depend on the processing

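Of 237 recomputed counts of called clock genes over 18 comparisons, 226 stayed within 1.5 times the reported count and 11 did not. Only the DIV7 response and vector against NT at rest had a reported count above 0. The other counts were 0, mostly in comparisons that called few genes of any kind, so most recounts had little room to move. With a replicate block the DIV7 count was 3 (Per1, Cry1 and Cry2) in place of 1. The block raised the calls over all genes there from 3371 to 5854 of 19822, and changed no other count of called clock genes. Without the low-count filter the count was 1 in place of 0 for the vector response and the DIV18 mean response (Per1), and 1 for WT against vector and S586E against WT at rest (Per2), where DESeq2 also gave 1. Over all genes, the fit without the filter called 515, 442, 604 and 782 of 41147 in these comparisons. The main fit called 15, 94, 3 and 0 of 20940. DESeq2 called 178 and 316 of 20940 for WT against vector and S586E against WT. For vector against NT at rest the count was 1 with only the groups compared, and ran from 0 to 3 when 1 replicate was left out. Over all genes, the fit of only the groups compared called 225 of 18460, and leaving out 1 vector replicate gave 724 to 1031 calls. The main fit called 1236 of 20940 there. Leaving out an NT replicate also lowered the calls over all genes. The cause of these changes was not tested.

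Of 947 recomputed gene values, 866 kept their direction and side of the threshold, 50 were no longer called, 9 became called and 22 changed sign. Only values called in the main fit could lose a call, and most of the 947 were never called. For vector against NT at rest, Per1 was called in 10 of 12 alternatives, Nr1d2 in 8 and Dbp in 7. No value that changed sign was called in either analysis, and the largest was 0.0853 in size. Leaving out 1 library at a time gave -0.018 to 0.12 for Nr1d2 at DIV7. In the DIV18 mean response it gave -0.15 to 0.017 for Cry1, -0.0095 to 0.053 for Clock and -0.025 to 0.091 for Nr1d1, and the replicate block gave -0.0098 for Nr1d1. For vector against NT, Cry2 at rest was 0.020 with protein-coding transcripts only and -0.13 to 0.080 with 1 library left out, and Clock under KCl ran from -0.090 to 0.020. For WT against vector at rest the ranges were -0.017 to 0.079 for Cry2, -0.12 to 0.085 for Arntl, -0.13 to 0.061 for Clock and -0.28 to 0.063 for Nr1d1. For S586E against WT they were -0.28 to 0.043 for Per1, -0.085 to 0.015 for Cry2 and -0.057 to 0.16 for Arntl. Groups of 2 and 3 libraries and the low counts of Per2 limit all DIV18 values.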
